A study of Homo sapiens with 6 samples.

Results

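A set of 10 marker genes of glia and neural stem cells was examined in U87-MG cells, namely CD44, SOX9, SOX2, OLIG2, GFAP, NES, FABP7, S100B, AQP4 and ALDH1L1. They were taken by gene symbol, and each symbol was found once, so the set held 10 of the 61806 genes in the deposited table. U87-MG is an established human glioblastoma cell line, which the labels call glioma. Of the 6 libraries, 3 were labelled NC with the genotype wildtype, and 3 were labelled GRIK1 siRNA with the genotype GRIK1 knockdown. GRIK1 encodes the kainate receptor subunit GluK1, and the comparison asked which transcripts differed once it was targeted. All 6 libraries came from this 1 line, grown in medium with fetal bovine serum, and the NC libraries served as the control group. The sample titles name siRNA where the deposited design text names shRNA. The labels do not say whether the numbers 1 to 3 in the siRNA titles mark repeats or different siRNA sequences. Nothing in the sources used here says that the libraries came from separate cultures, so every p-value measures only the spread between these samples, which may be technical.

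In brain tissue, radial glia line the developing ventricles, divide as stem cells and give rise to neurons, astrocytes and oligodendrocytes. Nestin, vimentin, SOX2 and FABP7 mark these stem cells, SOX9 stays on in the astrocyte lineage, and OLIG2 leads towards oligodendrocytes and their precursors. Mature astrocytes make the filament protein GFAP, the calcium-binding protein S100B, the water channel AQP4 and the folate enzyme ALDH1L1. CD44, the receptor for the matrix sugar hyaluronan, is known as a surface marker of glioblastoma cells with mesenchymal features.

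The libraries held 11099909 to 14006968 counts each. GRIK1 itself (ENSG00000171189) had 18, 9 and 8 counts in NC 1, 2 and 3 and 15, 20 and 20 counts in GRIK1 siRNA 1, 2 and 3. The targeted transcript was therefore not seen to be lower in the libraries labelled GRIK1 siRNA, although counts this low allow only a large difference to be detected. The paper reports efficient GRIK1 knockdown in U87-MG cells in separate assays, and the use of siRNA1 in its later experiments. Every direction given here refers to the labels. NC 3 stood apart. Its log2 CPM (counts scaled to the total of the library) correlated across genes at r = 0.957 and 0.962 with NC 1 and NC 2, which correlated at 0.983 with each other, and at 0.944 to 0.948 with the siRNA libraries. For that reason fold changes and calls were also computed without NC 3. Genes were tested when their mean over the 6 libraries reached 0.5 FPKM (fragments scaled to exonic length and library total, the unit of the table), which 15870 genes did.

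Promoter sequences were available in the RefSeq table (GRCh38.p14) for 6 of the 10 markers, NES, ALDH1L1, SOX2, FABP7, CD44 and AQP4. Those of the 2 stem cell genes SOX2 and NES, of the radial glia gene FABP7 and of CD44 are shown because their levels ran from a few counts for SOX2 to the highest of the set for CD44. Each run is the 250 bases before a RefSeq start, read 5′ to 3′ on the strand of the gene. The CD44 run lies inside the gene as the deposited table places it, since the table starts CD44 at 35138882. Capitals mark the box CCAAT on either strand.
CD44 (chr11:35138921-35139170, plus strand): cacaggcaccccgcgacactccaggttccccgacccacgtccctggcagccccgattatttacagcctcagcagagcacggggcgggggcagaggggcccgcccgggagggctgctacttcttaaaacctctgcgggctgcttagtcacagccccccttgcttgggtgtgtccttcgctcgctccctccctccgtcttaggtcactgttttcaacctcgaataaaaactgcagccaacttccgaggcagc
FABP7 (chr6:122779466-122779715, plus strand): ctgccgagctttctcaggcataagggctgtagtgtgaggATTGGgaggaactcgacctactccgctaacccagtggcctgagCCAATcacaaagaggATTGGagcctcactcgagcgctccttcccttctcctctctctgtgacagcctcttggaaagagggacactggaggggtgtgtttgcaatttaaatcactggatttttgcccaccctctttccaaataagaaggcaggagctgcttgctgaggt
NES (chr1:156677408-156677657, minus strand): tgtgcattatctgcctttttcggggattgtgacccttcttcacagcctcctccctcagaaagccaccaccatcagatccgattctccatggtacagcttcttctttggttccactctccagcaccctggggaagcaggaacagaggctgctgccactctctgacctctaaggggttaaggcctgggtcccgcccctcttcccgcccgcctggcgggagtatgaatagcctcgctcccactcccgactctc
SOX2 (chr3:181711675-181711924, plus strand): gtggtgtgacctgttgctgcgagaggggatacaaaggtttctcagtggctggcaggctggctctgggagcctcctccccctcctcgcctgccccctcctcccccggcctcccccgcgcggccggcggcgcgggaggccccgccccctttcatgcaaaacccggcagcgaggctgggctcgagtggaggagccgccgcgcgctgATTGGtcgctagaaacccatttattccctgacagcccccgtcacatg

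A search of both strands for 3 motifs, which did not overlap one another here, gave few matches. FABP7 held CCAAT 3 times and SOX2 held it once, whereas 32.0% of all 35116 promoters held it at least once and 2.93% held it 3 or more times. None of the 4 windows held the box TATAAA, which 10.7% of all promoters had. The AP-1 type site TGANTCA, present in 6.57% of all promoters, was not in these windows either. The dinucleotide CG occurred 20 times in the SOX2 window, 15 times in CD44, 8 times in NES and 5 times in FABP7, against a median of 11 over all promoters. The order of the CG counts was not the order of the levels, since SOX2 had the most CG and the fewest counts.

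CD44 was by far the most abundant marker, SOX9 was moderate, and the other 8 averaged below 1 FPKM. CD44 made up 92.4% of the summed FPKM of the 10 markers, and its mean of 61.4 FPKM was 21.7 times that of SOX9. The order by mean FPKM over the 6 libraries was CD44, SOX9, FABP7, OLIG2, NES, GFAP, SOX2 and S100B, with AQP4 and ALDH1L1 at 0. CD44 lay above SOX9, and SOX9 above FABP7, in 6 of 6 libraries with ranges that did not overlap. FABP7 and OLIG2 were closer, with FABP7 the higher in 5 of 6 libraries. OLIG2 exceeded NES in 4 of 6 libraries, so these neighbours did not differ beyond their spread. NES was above GFAP in 6 of 6 libraries, although their ranges over the libraries overlapped. GFAP was likewise above SOX2 in every library, again with overlapping ranges.

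**Figure D1:**
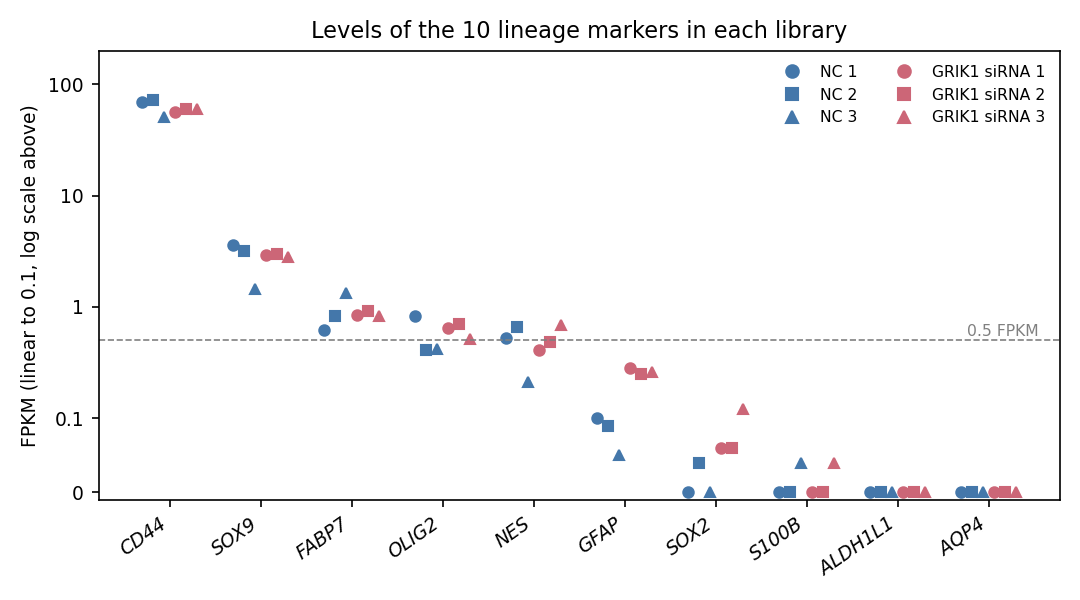
FPKM of the markers in each library, linear up to 0.1 and on a log scale above, with NC in blue, GRIK1 siRNA in red and the level for testing as a dashed line. CD44 sits between 50.77 and 71.63 FPKM, SOX9 between 1.45 and 3.6, and 7 of the 10 markers stay under 1 FPKM in every library.

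Only 4 markers reached the level needed for the test, CD44, SOX9, FABP7 and OLIG2. None of the 4 passed edgeR's quasi-likelihood test at a Benjamini-Hochberg adjusted p below 0.05, where 3.09% of all 15870 tested genes did. None had an unadjusted edgeR p below 0.05, which 3987 of all tested genes had. DESeq2 and limma also called 0 of 4, where they called 1684 and 407 of all tested genes. The 4 markers had a median log2 fold change of -0.08, beside -0.02 for all tested genes. None of the 4 separated the groups without overlap in normalized CPM, as 38.5% of tested genes did. The other 6 markers were below the level, so a fit without the filter, over 34080 genes with at least 1 count, was added for the 8 markers that had any. In that fit 1 of 8 was called, GFAP, against 4.12% of all genes. The groups did not overlap for 3 of 8, GFAP, SOX2 and CD44, against 23.5% of all genes. In bulk libraries such as these, fewer cells that express a gene and less of its RNA per cell cannot be told apart. A fit without NC 3 called 1 of the 4 tested markers, CD44, where 35.2% of all tested genes were called. Without the filter and without NC 3, GFAP and CD44 were called, 2 of 8, against 17.0% of all genes.

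**Figure D2:**
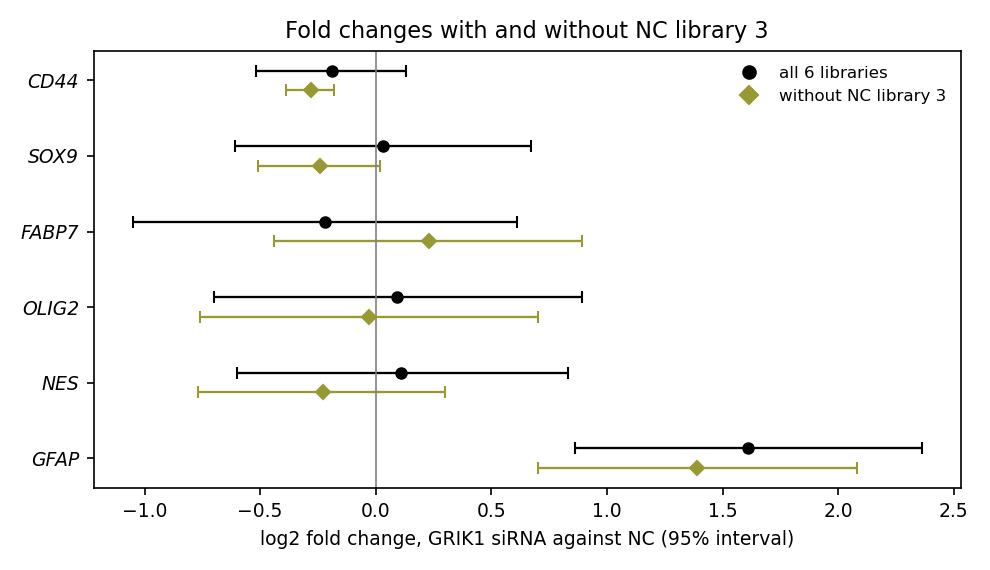
Log2 fold change, GRIK1 siRNA over NC, of 6 markers with 95% confidence intervals, with all 6 libraries (black) and without NC 3 (olive); GFAP and NES come from the fit without the filter. The GFAP interval lies above 0 in both fits, at 0.86 to 2.36 and 0.70 to 2.08, and the CD44 interval excludes 0 only in the fit without NC 3.

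CD44 (ENSG00000026508, chromosome 11, 35138882 to 35232402, plus strand) is a surface glycoprotein that binds hyaluronan and links the cell to its matrix. Its FPKM was 69.11, 71.63 and 50.77 in NC 1, 2 and 3 and 56.75, 60.2 and 59.62 in GRIK1 siRNA 1, 2 and 3, from 7023 to 7961 counts per library. The means were 63.8 ± 11.4 FPKM (SD, n = 3) and 58.9 ± 1.85 FPKM (SD, n = 3), and the NC mean exceeded that of 96.5% of the tested genes. NC 3 was the lowest of all 6 libraries, and the siRNA libraries fell between it and the other NC libraries, so the groups overlapped. The log2 fold change was -0.19 (SE 0.14, 95% confidence interval -0.52 to 0.13, edgeR adjusted p = 0.401). Without NC 3 it was -0.28 (SE 0.05, -0.39 to -0.18, adjusted p = 0.000205), so 1 library decided whether CD44 was called. The interval with all libraries was wide enough to hold no change as well as a fall of 0.52 on the log2 scale. The scaling also mattered for the separation. Normalized CPM from the unfiltered fit was 677, 706 and 590 in NC and 546, 577 and 573 in the siRNA libraries, and these did not overlap. With the scaling of the tested genes the values were 683, 715 and 572 against 552, 586 and 583, which did. Other genes that overlap CD44 had few counts, with 5 to 17 for CD44-AS1, 2 to 12 for the overlapping divergent transcript CD44-DT and 6 to 15 for ENSG00000251194, a gene with no symbol on the same strand. Counting by strand is not stated, so reads shared with these genes cannot be told apart, and their number was not measured.

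**Figure D3:**
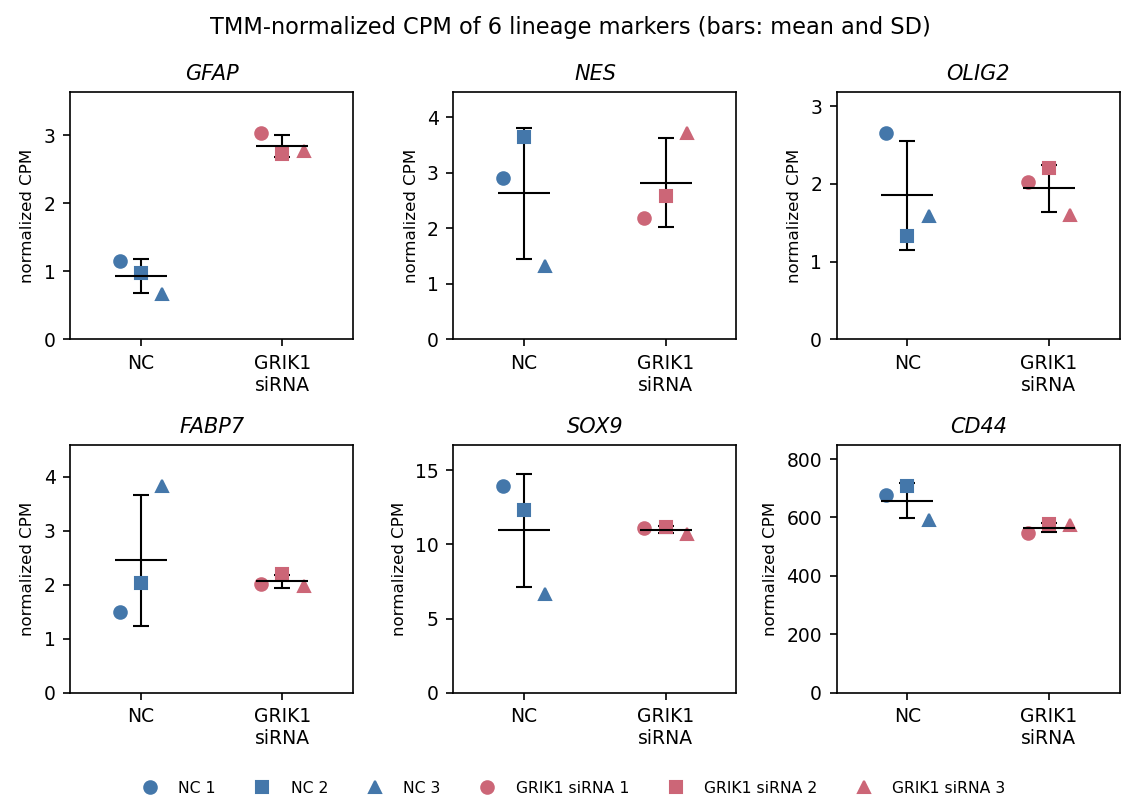
Normalized CPM from the fit without the filter for 6 markers, each point a library, with bars for the mean and SD of each group. GFAP is higher in all 3 siRNA libraries, at 2.73 to 3.03 CPM against 0.665 to 1.15 in NC, while NC 3 is the lowest library for SOX9, NES and GFAP and the highest for FABP7.

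Genes that make, cut or respond to hyaluronan or partner with CD44 gave 12 tested members of 16. Of these, 1 was called lower and none was called higher, where 3.09% of all tested genes were called, and the median log2 fold change was -0.23. DESeq2 called 4 of the 12 and limma 0, where they called 1684 and 407 of all 15870 tested genes. The gene called by edgeR fell below the stricter filter of 1 FPKM. HAS3, one of the enzymes that synthesize hyaluronan, had 1.18, 1.0 and 0.8 FPKM in NC 1, 2 and 3 and 0.4, 0.5 and 0.32 in the siRNA libraries. Every siRNA library was below every NC library, where 38.5% of all tested genes separated the groups. HAS3 fell by 1.35 on the log2 scale (SE 0.25, edgeR adjusted p = 0.0387). It reached the 0.5 FPKM level for testing only through the NC group, with means of 0.993 FPKM in NC and 0.407 in the siRNA libraries, so the filter favoured a fall. The matrix metalloproteinase MMP14, the most abundant of the list, averaged 233 ± 114 FPKM in NC and 271 ± 26.0 in the siRNA libraries (SD, n = 3 each, adjusted p = 0.785). SPP1, which encodes the CD44 ligand osteopontin, had a log2 fold change of -1.01 with an adjusted p of 0.129. Its NC 3 value of 77.86 FPKM was far above the 36.6 and 38.13 of NC 1 and NC 2. Without NC 3, 3 members were called higher and 4 lower, 7 of 12 where 35.2% of all tested genes were called, with SPP1 at -0.47 (adjusted p = 1.04e-06).

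SOX9 (ENSG00000125398, chromosome 17, 72121020 to 72126416, plus strand) is the HMG-box transcription factor that turns stem cells towards glia. It had 157, 139 and 80 counts in NC 1, 2 and 3, or 3.6, 3.18 and 1.45 FPKM. The siRNA libraries had 143, 147 and 147 counts, or 2.94, 2.96 and 2.83 FPKM. The siRNA libraries were nearly level, while the NC libraries lay on both sides of them, NC 3 far below. The means were 2.74 ± 1.14 and 2.91 ± 0.07 FPKM (SD, n = 3 each), with a log2 fold change of 0.03 (SE 0.27, -0.61 to 0.67, adjusted p = 0.957). Without NC 3 the sign turned, to -0.24 (SE 0.12, -0.51 to 0.02, adjusted p = 0.14). The spread of normalized CPM was 34.7% of the mean over the 3 NC libraries, 8.3% for NC 1 and NC 2, and 2.34% for the siRNA libraries. SOX9-AS1, antisense to it, had at most 5 counts in a library.

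SOX2 (ENSG00000181449, chromosome 3, 181711925 to 181714436, plus strand), a core factor of neural stem cells, was close to absent. It had 0, 1 and 0 counts in NC and 2, 2 and 4 counts in the siRNA libraries, at most 0.12 FPKM. All siRNA libraries were above all NC libraries, but the whole difference rested on 1 count against 8. Scaled to the library totals, the ratio of the sums was 7.58, with an exact 95% interval of 1.017 to 336.5 that covers counting error only. An exact two-sided permutation test on log2(FPKM + 1) gave p = 0.1, the smallest that 3 against 3 libraries allow, and edgeR without the filter gave an adjusted p of 0.407. SOX2 lies inside the long noncoding gene SOX2-OT, on the same strand, which had 0, 5 and 10 counts in NC and 7, 15 and 17 counts in the siRNA libraries. Reads of the 2 genes cannot be told apart by strand there.

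OLIG2 (ENSG00000205927, chromosome 21, 33025935 to 33029196, plus strand) is the helix-loop-helix factor of oligodendrocyte precursors. It had 30, 15 and 19 counts in NC and 26, 29 and 22 in the siRNA libraries, which corresponded to 0.83, 0.41 and 0.42 FPKM and 0.64, 0.7 and 0.51 FPKM. The siRNA libraries all fell within the NC range. The means were 0.553 ± 0.240 and 0.617 ± 0.0971 FPKM (SD, n = 3 each), and the log2 fold change was 0.09 (SE 0.34, -0.70 to 0.89, adjusted p = 0.882). The interval thus held both a rise of 0.89 and a fall of 0.70 on the log2 scale. Without NC 3 the sign turned, to -0.03 (SE 0.35, -0.76 to 0.70, adjusted p = 0.958). OLIG1, its neighbouring paralog, was listed at 0 in every library.

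None of the 4 tested members of the SOX family list (17 further genes) was called by edgeR, DESeq2 or limma. Over all 15870 tested genes, edgeR called 3.09%, DESeq2 called 1684 and limma called 407. Of the 4, 0 had an unadjusted edgeR p below 0.05, as 3987 of all tested genes had, and their median log2 fold change was 0.19. SOX12 was the most abundant, with 8.23, 7.58 and 5.32 FPKM in NC and 6.36, 5.51 and 6.24 in the siRNA libraries (log2 fold change -0.30, adjusted p = 0.261). Without NC 3, SOX12 was the 1 member called, at -0.41 (adjusted p = 0.00202), in a fit that called 35.2% of all tested genes. SOX15 followed, with means of 3.05 ± 0.526 and 3.94 ± 1.07 FPKM (SD, n = 3 each, adjusted p = 0.483). SOX9 came next by mean FPKM over the 6 libraries, although it exceeded SOX15 in NC 1 and in GRIK1 siRNA 3.

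GFAP (ENSG00000131095, chromosome 17, 44903159 to 44916937, minus strand), the intermediate filament protein of mature astrocytes, was low in every library and higher in those labelled GRIK1 siRNA. It had 13, 11 and 8 counts in NC 1, 2 and 3 and 39, 36 and 38 counts in GRIK1 siRNA 1, 2 and 3. The corresponding FPKM was 0.1, 0.09 and 0.05 against 0.28, 0.25 and 0.26. The siRNA libraries were all above the NC libraries, where 23.5% of all genes with a count separated the groups in normalized CPM. Means were 0.08 ± 0.0265 and 0.263 ± 0.0153 FPKM (SD, n = 3 each). The ratio of the summed counts, 32 against 113, was 3.35 once scaled to the totals, with an exact 95% interval of 2.244 to 5.124 from counting error alone. In the fit without the filter the log2 fold change was 1.61 (SE 0.36, 0.86 to 2.36, edgeR adjusted p = 0.0109). It was 1.39 without NC 3 (SE 0.35, 0.70 to 2.08, adjusted p = 0.00108). The call did not hold without GRIK1 siRNA 1 (1.56, adjusted p = 0.136) or without GRIK1 siRNA 3 (1.61, adjusted p = 0.186), and limma on log2(FPKM + 1) gave 0.23 with an adjusted p of 0.111. An exact permutation test gave p = 0.1, the smallest possible. GFAP fell short of the level for testing, so its call comes only from the fit without the filter.

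The abundance of GFAP was small in both groups. Vimentin (VIM), the filament protein of mesenchymal and immature glial cells, averaged 981 ± 137 FPKM in NC and 1020 ± 16.3 FPKM in the siRNA libraries (SD, n = 3 each). VIM exceeded GFAP by 12265 times in NC and by 3880 times in the siRNA libraries in mean FPKM. The size used in the table for GFAP was 11229 bases, the joint exons of many transcripts. With the longest coding transcript in GENCODE 29, 6538 bases, the mean level became 0.295 FPKM in place of 0.172. The gene CCDC103 overlaps the 3′ side of GFAP on the other strand and had 5, 7 and 7 counts in NC and 3, 3 and 1 counts in the siRNA libraries, so its counts were lower where those of GFAP were higher.

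NES (ENSG00000132688, chromosome 1, 156668763 to 156677407, minus strand) encodes nestin, the filament protein of neural stem cells. It had 33, 41 and 16 counts in NC and 28, 34 and 51 counts in the siRNA libraries, or 0.53, 0.66 and 0.21 FPKM against 0.41, 0.48 and 0.69 FPKM. The groups overlapped, with NC 3 the lowest and GRIK1 siRNA 3 the highest. The mean of 0.497 FPKM over the 6 libraries was just under the level for testing, while OLIG2 was just above it. The group means were 0.467 ± 0.232 and 0.527 ± 0.146 FPKM (SD, n = 3 each). Without the filter the log2 fold change was 0.11 (SE 0.35, -0.60 to 0.83, adjusted p = 0.874), and without NC 3 it turned to -0.23 (SE 0.27, -0.77 to 0.30, adjusted p = 0.686).

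Of 12 other intermediate filament and filament linker genes, 6 were tested. Of these, 1 was called lower and none was called higher, where 3.09% of all tested genes were called. The log2 fold changes had a median of -0.12. The called gene was LMNB1, lamin B1 of the nuclear lamina, with 4.39, 3.86 and 2.77 FPKM in NC and 2.04, 2.25 and 1.85 in the siRNA libraries. These groups did not overlap, as for 38.5% of all tested genes, and LMNB1 fell by 0.92 on the log2 scale (SE 0.18, adjusted p = 0.0444). LMNB1 forms the nuclear lamina rather than a cytoplasmic glial filament. VIM (log2 fold change -0.02, adjusted p = 0.937) and LMNA, lamin A/C (0.19, adjusted p = 0.616), were the most abundant of the list. Without NC 3, 1 member was called higher and 3 lower, 4 of 6 where 35.2% of all tested genes were called.

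FABP7 (ENSG00000164434, chromosome 6, 122779716 to 122784074, plus strand), the brain fatty acid binding protein of radial glia, had 17, 23 and 46 counts in NC and 26, 29 and 27 in the siRNA libraries. In FPKM these were 0.62, 0.83 and 1.32 against 0.84, 0.92 and 0.82. Here NC 3 was the highest library, not the lowest, and the siRNA libraries fell inside the NC range. The means were 0.923 ± 0.359 and 0.86 ± 0.0529 FPKM (SD, n = 3 each), and the log2 fold change was -0.22 (SE 0.36, -1.05 to 0.61, adjusted p = 0.719). Without NC 3 it was 0.23 (SE 0.32, -0.44 to 0.89, adjusted p = 0.627). The spread of FABP7 in normalized CPM was 49.5% of the mean in NC and 5.99% in the siRNA libraries.

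S100B (ENSG00000160307, chromosome 21, 46598604 to 46605208, minus strand), a calcium-binding protein of astrocytes, had 1 count in NC 3, 1 in GRIK1 siRNA 3 and 0 in the other 4 libraries. Both groups were at or under the limit of 3 counts per library, so no fold is given. AQP4 (ENSG00000171885, chromosome 18, 26852043 to 26865771, minus strand), the water channel of astrocyte end-feet, and ALDH1L1 (ENSG00000144908, chromosome 3, 126103562 to 126197994, minus strand), a folate enzyme of astrocytes, had 0 counts in all 6 libraries. A count of 0 allows up to 3 counts per library, which was 0.2142 to 0.2703 CPM, from counting error alone. Their antisense genes were also at 0. Transcripts of these 3 astrocyte markers were therefore not detectable, or barely so, at this depth, in cells labelled glioma.

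**Figure D4:**
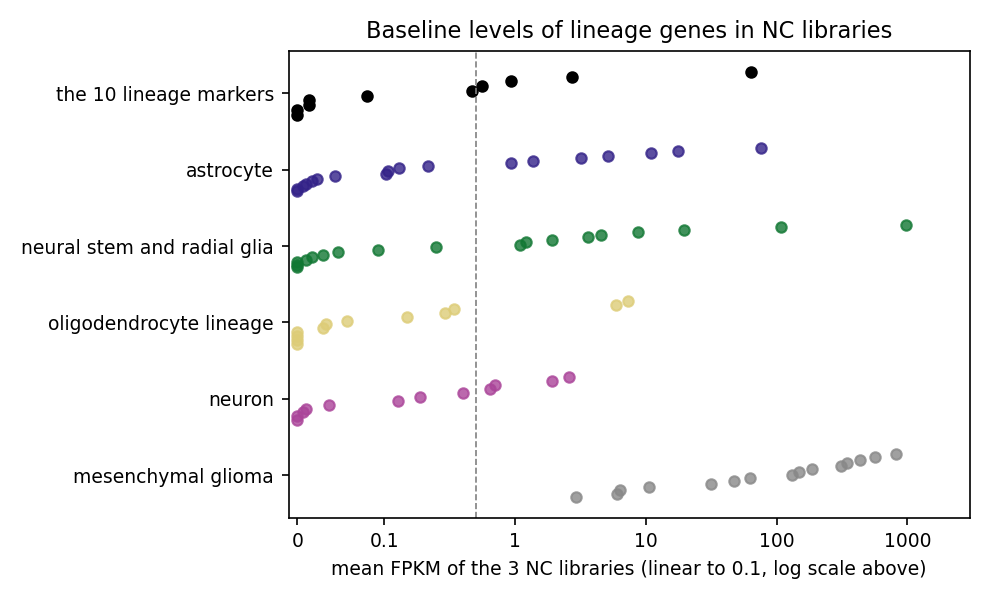
Mean FPKM of the 3 NC libraries for the 10 markers and for 5 of the comparison lists, each point a gene, linear up to 0.1 and on a log scale above, with the level for testing as a dashed line. All but 2 of the 10 markers lie below 1 FPKM, while all 15 mesenchymal glioma genes lie above the dashed line.

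The wider astrocyte list held 18 genes besides the markers, of which 7 were tested. Of these, 1 was called higher and 1 was called lower, where 3.09% of all tested genes were called, and the median log2 fold change was 0.02. GJA1, which encodes the main connexin of astrocyte gap junctions, had 79.37, 79.95 and 69.44 FPKM in NC and 117.42, 118.25 and 116.45 in the siRNA libraries. It was above NC in all 3 siRNA libraries, where 38.5% of all tested genes separated the groups. GJA1 rose by 0.54 on the log2 scale (SE 0.11, adjusted p = 0.0495). The call was lost in the fit without the filter, where the adjusted p was 0.0839. SLC1A3, the glutamate transporter of astrocytes, had 3.46, 3.48 and 2.63 FPKM in NC and 2.0, 2.14 and 2.15 in the siRNA libraries, and fell by 0.68 (SE 0.12, adjusted p = 0.0378). CLU, the secreted chaperone clusterin, averaged 17.7 ± 6.66 FPKM in NC and 17.9 ± 0.823 in the siRNA libraries (SD, n = 3 each, adjusted p = 0.918), and without NC 3 it was called at -0.29 (adjusted p = 0.000482). GJB6, the other astrocyte connexin of the list, was listed at 0 in every library. The summed FPKM of the list ran from 97.75 to 125.75 in NC and from 157.38 to 161.57 in the siRNA libraries, most of it from GJA1. Without NC 3, 3 members were called higher and 2 lower, 5 of 7 where 35.2% of all tested genes were called.

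The neural stem and radial glia list gave 9 tested genes of 18, with none called by edgeR, DESeq2 or limma and a median of -0.02. Over all tested genes edgeR called 3.09%, DESeq2 called 1684 and limma called 407. In edgeR 1 had an unadjusted p below 0.05, as did 3987 of all 15870 tested genes. TNC, the matrix glycoprotein tenascin C, had 155.64, 144.24 and 24.78 FPKM in NC and 163.03, 156.26 and 152.76 in the siRNA libraries (log2 fold change 0.50, adjusted p = 0.578). NC 3 alone set that difference, since the value without it was 0.04. The stem cell factors SOX1 and HES5 were listed at 0, the only 2 of the 18 genes without a count in any library. Other factors of the list were expressed, with means over the 6 libraries of 18.7 FPKM for BMI1, 8.63 for ID1 and 2.33 for HES1. Of 12 oligodendrocyte lineage genes 3 were tested and none was called by any of the 3 tools, with 1 at an unadjusted p below 0.05. Their median was 0.52, and 0.10 without NC 3. The tested gene BCAN reached 0.5 FPKM only through the siRNA group, with means of 0.34 FPKM in NC and 0.673 in the siRNA libraries, so the filter favoured a rise. CSPG4, the NG2 proteoglycan, had 8.3, 7.6 and 1.67 FPKM in NC and 8.49, 9.06 and 8.48 in the siRNA libraries (adjusted p = 0.495), and without NC 3 its log2 fold change was 0.10. CNP, the myelin enzyme, had an adjusted p of 0.196 at -0.32, and without NC 3 it was the 1 member called, at -0.20 (adjusted p = 0.0452). In the neural stem list 1 gene was called without NC 3, the RNA-binding protein gene MSI2, at -0.24 (adjusted p = 0.0167). That fit, from which the CNP call also came, called 35.2% of all tested genes.

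Markers of other cell types were examined beside these. Over all 15870 tested genes, 3987 had an unadjusted edgeR p below 0.05 and DESeq2 called 1684. The neuron list gave 5 tested of 12, none called by edgeR, 1 by DESeq2 and 2 at an unadjusted p below 0.05. Its summed FPKM was 5.7 to 7.23 in NC and 6.78 to 7.14 in the siRNA libraries, with DCX and ELAVL4 at 0. MAP2 and SNAP25, its most abundant genes, had log2 fold changes of 0.09 and -0.44 (adjusted p = 0.645 and 0.0934). The immune cell list gave 3 tested of 10, none called by any tool and 1 at an unadjusted p below 0.05, with sums of 4.21 to 5.79 against 5.64 to 5.95 FPKM and CD68 (adjusted p = 0.276) and CSF1R (adjusted p = 0.91) at the top. PTPRC, the common leukocyte antigen, was at or below 0.03 FPKM, and AIF1 was at 0. The endothelial list gave 1 tested of 6, KDR, which was not called by any tool (adjusted p = 0.445), with sums of 1.63 to 2.41 and 1.69 to 2.21 FPKM. The median log2 fold changes of these lists were 0.09, -0.05 and -0.23. Without NC 3 each list had lower calls and no higher ones. These were SNAP25 (-0.51, adjusted p = 0.000124) and NEFM (-0.94, adjusted p = 0.0254) among neuron genes, TMEM119 (-0.97, adjusted p = 0.013) among immune genes, and KDR (-0.36, adjusted p = 0.0441), beside the 35.2% of all tested genes called in that fit.

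Genes of the mesenchymal glioma state, to which CD44 is usually counted, all passed the level for testing, 15 of 15. None was called by edgeR, and the median log2 fold change was 0.15. An unadjusted edgeR p below 0.05 was found for 5, as for 3987 of all 15870 tested genes. DESeq2 called 2, in a fit that called 1684 of all tested genes. TGFBI, a matrix protein induced by TGF-beta, had means of 565 ± 211 and 997 ± 26.1 FPKM (SD, n = 3 each, adjusted p = 0.135), and LGALS1, galectin 1, had 818 ± 207 and 778 ± 109 FPKM (adjusted p = 0.662). The fibroblast and mural cell list gave 9 tested of 10, none called by edgeR, 2 by DESeq2 and 3 at an unadjusted p below 0.05, with a median of 0.15. Its summed FPKM was 131.72 to 317.72 in NC and 612.84 to 633.48 in the siRNA libraries, which did not overlap. COL1A1 and COL1A2, the chains of type I collagen, carried most of it, with log2 fold changes of 1.70 (adjusted p = 0.0744) and 1.32 (adjusted p = 0.107). Without NC 3, 9 mesenchymal genes were called higher and 2 lower, and 4 fibroblast genes higher and 1 lower, in a fit that called 35.2% of all tested genes. The part of such genes in the values of the markers was not tested.

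Across the 11 lists, some of which share a gene, 72 of 141 distinct genes were tested and 4 were called, 1 higher and 3 lower, or 5.56% beside 3.09% of all tested genes. DESeq2 called 12, in a fit that called 1684 of all 15870 genes, and limma called 1 where it called 407 in all. In edgeR 24 of the 72 had an unadjusted p below 0.05, as did 3987 of all 15870 genes. The 4 called genes GJA1, SLC1A3, HAS3 and LMNB1 lost their calls when any 1 library other than NC 3 was left out, since those fits called 0 genes in all. Without NC 3, 38 of the 72, or 52.8%, were called, beside 35.2% of all tested genes.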

How the data were processed

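RNA from 6 U87-MG samples, 3 NC and 3 GRIK1 siRNA, was sequenced as bulk RNA-seq libraries made from TRIzol-extracted total RNA. The authors deposited 1 table with raw gene counts and FPKM for each library. Per the submitters' processing notes, cutadapt 1.9.1, HISAT2, HTSeq and GRCh38 were used, while aligner settings, strand and annotation release are not given in the sources used here. The deposited FPKM equalled the count scaled to the listed exonic size and to the library's total count, for 100% of values within 0.005 FPKM. Coordinates and identifiers are those of the table.

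Groups came from the sample labels. Genes with a mean FPKM of at least 0.5 over the 6 libraries were tested on the deposited counts with edgeR 4.0.16 (TMM scaling, quasi-likelihood F test) and Benjamini-Hochberg adjustment over all tested genes, and those with an adjusted p below 0.05 were called. Standard errors were the log2 fold change over the square root of F. Fold changes are GRIK1 siRNA over NC. Intervals of ratios of summed counts are exact (Clopper-Pearson, 95%) and, like the floor of 3 counts, cover counting error only. Totals of 11099909 to 14006968 counts limit the precision of genes with few counts. No pair of libraries agreed within sampling noise, the lowest mean chi-square per gene being 2.218. Alternatives were no filter, a filter of 1 FPKM, RLE scaling, DESeq2 1.42.0, limma 3.58.1 on log2(FPKM + 1), the replicate number as a block and leaving out each library. Scripts ran in R 4.3.3 and Python 3.11.15 and were tested on simulated counts. The simulation had less spread between libraries than these data and no outlying library such as NC 3, so it does not show how calls behave here. Transcript lengths came from GENCODE 29, and promoters from the RefSeq table.

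The text names all markers, GRIK1, genes with a count that overlap a marker, and from each list the called genes (at most 4) and the 2 with the highest mean FPKM, plus defining genes at or near 0 and single genes called without NC 3, which were chosen after their values were seen. The markers and lists were chosen with earlier results of these data known. Fits of GFAP and NES without the filter were combined with other settings after seeing the data.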

Additional observations from a re-analysis of the deposited data

How the results depend on the processing

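Over all tested genes, the 490 calls became 1403 without the filter, 1684 with DESeq2 and 0 with the replicate block, and ranged from 0 to 5591 when 1 library was left out, with 5591 reached without NC 3 and 0 without any other library. Without the filter, leaving out NC 1, NC 2 and GRIK1 siRNA 1, 2 and 3 gave 2775, 1609, 50, 499 and 17 calls, and leaving out NC 3 gave 5785. Without the filter 1 lineage marker was called, and 0 to 1 with a library left out. The GFAP log2 fold change of 1.61 was 0.23 with limma on log2(FPKM + 1), where low values are compressed by the pseudocount of 1, and 1.39 to 1.79 with 1 library left out. It was 1.56 without GRIK1 siRNA 1 and 1.61 without GRIK1 siRNA 3, with edgeR adjusted p-values of 0.136 and 0.186. With the replicate block the GFAP value was 1.62 (adjusted p = 0.0144), and the tested markers stayed uncalled. Deviations from the group means correlated at r = -0.067, 0.047 and -0.036 for samples with the same number and at -0.062 to 0.087 for different numbers. The NC means include the outlying NC 3, so these values cannot show whether samples with the same number were handled together. The sign turned in some of the leave-one-out fits for SOX9 (-0.24 to 0.24), OLIG2 (-0.09 to 0.45), FABP7 (-0.46 to 0.23) and NES (-0.23 to 0.42, with -0.16 without GRIK1 siRNA 3), and for CD44 it did not (-0.28 to -0.13). The cause was not tested. The ratio of SOX2 counts was 4.65 to 8.49, with none possible without NC 2, where NC had no count. With the longest coding transcript the mean FPKM of GFAP was 0.295 and that of CD44 was 107 in place of 0.172 and 61.4. Of all values under the alternatives, 178 counted as the same, 54 moved further, 7 turned sign, 1 gained a call and 3 lost one. Most of these values were numbers of called genes, which counted as the same when equal or close. Fold changes counted as the same when they kept their sign and side of the threshold. Levels did so when they moved by less than the SD over the libraries, and the SOX2 ratio when it stayed in its interval. With at most 51 counts in a library, markers other than CD44 and SOX9 allow only large differences to be detected.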
